A study of Mus musculus with 80 samples.

Results

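The hippocampus of virgin and primiparous mice was compared gene by gene. The members were the 15 hippocampus libraries of the count table, chosen by their column names, of 77 libraries in the table and 80 in the labels: 7 from virgin and 8 from primiparous females. Each was made from the left hippocampus of 1 animal, and the same animals also gave neocortex, amygdala, hypothalamus and cerebellum libraries. All animals were C57BL/6 (C57BL/6J in the study's methods) and were kept in one barrier room, with births within a few days of each other. Primiparous females were mated at 8 weeks of age, each with 1 male, and raised a single litter. The labels put the harvest 3 weeks after weaning, whereas the study's methods give a longer interval. The virgin females were age-matched, housed in a group and never placed with a male, so mating, pregnancy, nursing, housing and time with a male cannot be told apart. The question was whether any transcript in this region stayed different after the pups had left. A further virgin library, which the authors removed as an outlier, was not analysed here.

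The hippocampus forms and retrieves memories of places and events. Its main circuit runs from granule cells of the dentate gyrus to CA3 and then CA1 pyramidal cells, with local interneurons, astrocytes, oligodendrocytes and microglia around them. It is rich in receptors for glucocorticoids, the adrenal stress hormones, and new granule cells are added to the dentate gyrus in adult life. Work in rodents has linked pregnancy and nursing with shifts in hippocampal plasticity, neurogenesis and stress hormone signalling, which is why gene lists for those processes were included here.

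Depth, as reads counted on genes, ran from 14404113 to 37871854 for the virgin group (median 21527911) and from 17483053 to 34061616 for the primiparous group (median 22226501.5), so 1 CPM (the unit of counts scaled to a common library total) stood for 14.4 to 37.9 reads. Of 30 listed markers of hippocampal subfields, 19 had their highest mean in the hippocampus among the 5 regions. Lct was 36.3 times and Dsp 33.6 times as high as in the next region, and both mark dentate granule cells. Fibcd1, a CA1 marker, was 12.1 times as high, and Iyd, a CA3 marker, 14.7 times. Markers with a higher mean elsewhere included Wfs1, at 245 CPM in the amygdala against 155 here, and Pcp4, at 615 CPM in the cerebellum against 98.2 here.

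Several libraries stood apart by transcripts of other tissues. Primiparous 413 was the highest hippocampus library for 17 of 17 listed cerebellum genes, whose sum was 1095 CPM there and at most 276 in any other library. Over 86 genes at least 16 times as high in the cerebellum, its level above the other hippocampus libraries was 7.96% of the cerebellum level (quartiles 6.74% and 8.97%), whereas the other 14 libraries had medians between -0.207% and 0.334%. Prl, the pituitary hormone prolactin, exceeded 10 CPM in primiparous 413 (15.02), 414 (10.6) and 427 (47.9) and reached at most 0.6248 CPM in virgin females. Animals 414 and 427 were over 10 CPM in all 5 regions, and 1 virgin animal with no hippocampus library here was over it in the neocortex and the hypothalamus. Primiparous 427 also held 11.01 CPM of Gh and 13.6 CPM of Pomc in the hippocampus, both pituitary hormone genes. Ttr, the choroid plexus marker transthyretin, exceeded 500 CPM in primiparous 421 (923) and 425 (3598) and in virgin 4487 (3219) and 4488 (784), against 24.1 to 137 CPM in the other libraries. Virgin 4487 also had the highest summed thalamus markers, with 236 CPM against 130 CPM in the next library.

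**Figure D1:**
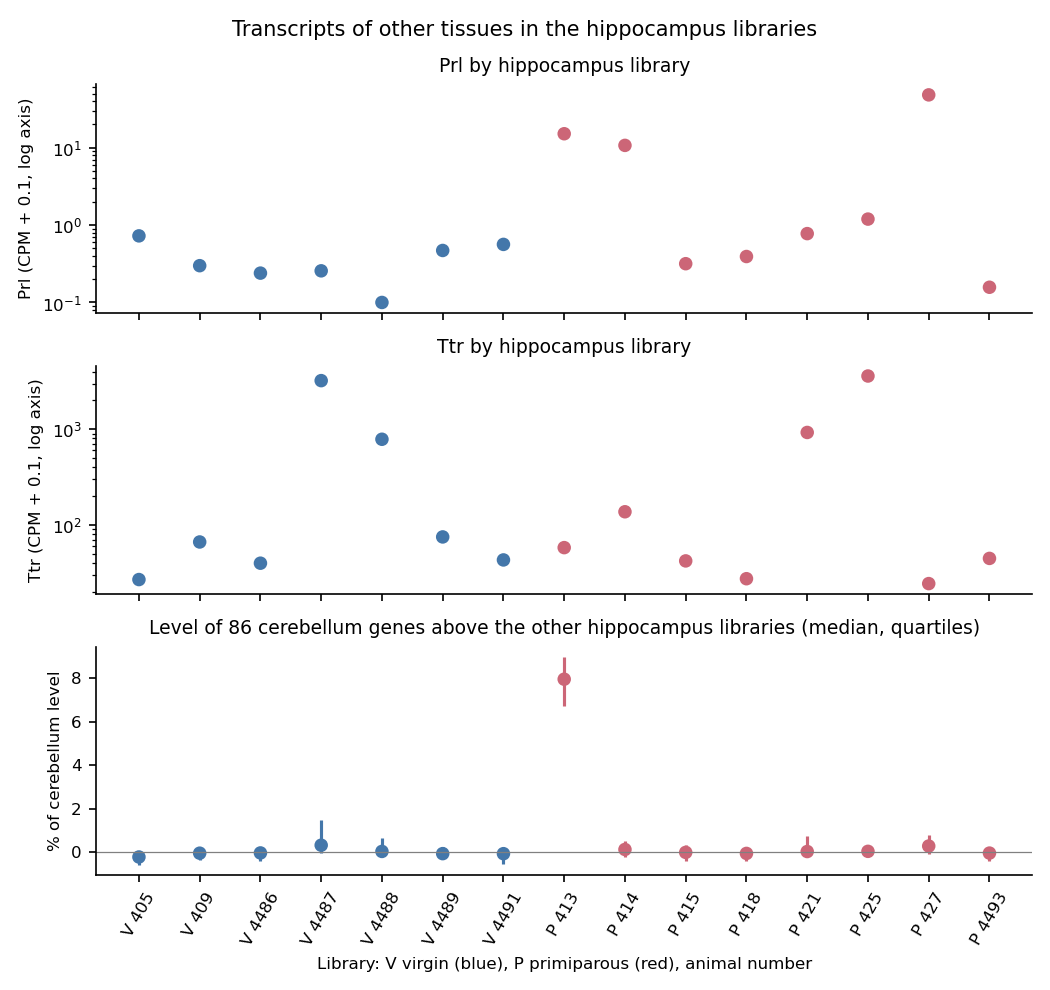
Transcripts of other tissues in each hippocampus library (V virgin, P primiparous, with the animal number): Prl and Ttr in CPM on log axes, and the level of 86 cerebellum genes above the other hippocampus libraries, in percent of the cerebellum level, with bars for the quartiles. Primiparous 413 sits at 7.96% while the other libraries lie between -0.207% and 0.334%, and Ttr is high in libraries of both groups.

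Across 13016 genes, edgeR's quasi-likelihood F-test gave 0 genes with an adjusted p under 0.05 (0% of those tested, smallest adjusted p 0.167). At an unadjusted p under 0.05 there were 961 genes, or 7.38%. Of these, 462 (3.55%) were higher and 499 (3.83%) lower in primiparous females, while by the sign of the estimate alone 49.9% of all genes were higher and 50.1% lower. Without primiparous 413 the adjusted count was again 0 (smallest adjusted p 0.1004) and the unadjusted count 1256 (9.65%), of which 641 were higher (4.92%) and 615 lower (4.72%). Limma-voom also gave 0 genes, while DESeq2 gave 12 (0.0922%) and, without primiparous 413, 39 (0.411% of the 9482 genes to which it gave an adjusted p). The 12 were Mt1, Idh2, 5031426D15Rik, Arrdc2, C4b and Ddit4, lower in primiparous females, and Bicd1, Hspa4l, Lmbrd2, Erbb4, Tnks and Prl, higher in them. Because the main test passed no gene, the differences below are point estimates, given as log2 fold changes (primiparous minus virgin) unless named otherwise, and none is called a change. In whole tissue, fewer cells of a type and less RNA per cell cannot be told apart.

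**Figure D2:**
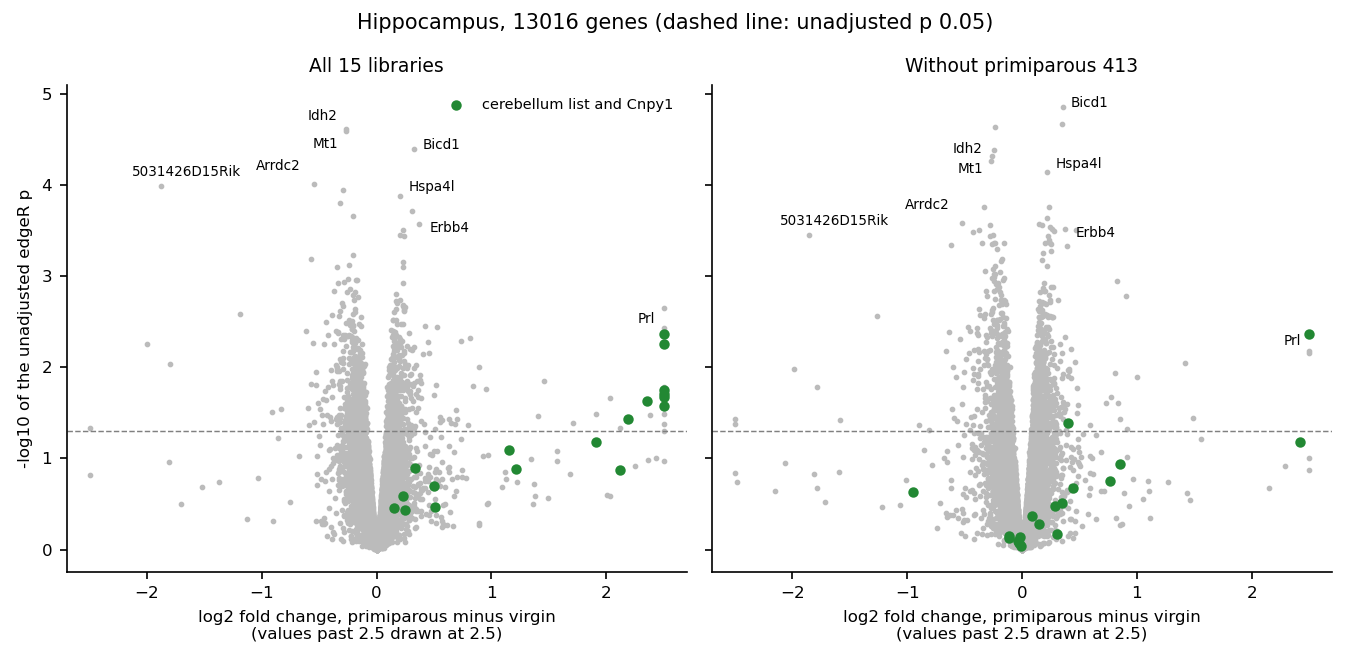
Each grey point is a gene, plotted by its log2 fold change (primiparous minus virgin) and the -log10 of its unadjusted edgeR p, with all 15 libraries on the left and without primiparous 413 on the right. Green points are the cerebellum list and Cnpy1, another gene of high level in library 413: they lie to the right of 0 with all libraries and scatter around 0 without that library.

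For most genes the difference was bounded within a narrow range. The limma-voom 95% interval of the log2 fold change lay inside 1.25-fold for 77.8% of genes, inside 1.5-fold for 94.9% and inside 2-fold for 98.2%. The median standard error was 0.0701 and the median absolute log2 fold change 0.0572. Point estimates beyond 1.5-fold were found for 104 genes, and for 88 without primiparous 413. Of the squared distance among the 15 libraries over log2(CPM + 4), 7.53% lay between the groups, against a median of 6.88% over the 6435 ways of splitting the libraries 7 to 8 (exact permutation test, p = 0.348). Without primiparous 413 the share was 8.92% (exact permutation test, p = 0.233).

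Every primiparous library lay above every virgin library for 4 genes (0.0307%) and below every virgin library for 7 (0.0538%). The 4 were Hspa4l, Fpgt, Rsbn1 and Pcdhb10. Fpgt encodes the enzyme that makes GDP-fucose from fucose-1-phosphate, and Pcdhb10 is a clustered protocadherin, an adhesion molecule of neurons. The 7 were Mt1, Rnase4, Upf3a, Csrnp1, Trp53bp2, Chmp1a and Mfng, among them Upf3a of nonsense-mediated mRNA decay and Chmp1a of the ESCRT-III membrane-scission complex. Fpgt (gene 75540, chromosome 3, 155084918 to 155093403) ranged over 20.9 to 24.7 CPM across virgin libraries (median 23.96) and 24.9 to 29.4 CPM across primiparous libraries (median 27.6), with log2 fold change 0.24 (standard error 0.0566, unadjusted p = 0.000368, adjusted p = 0.342). Rnase4, a secreted ribonuclease, was at 16.03, 17.01 and 18.3 CPM (lowest, median and highest virgin library) against 12.97, 14.4 and 15.8 (the same in primiparous females). Its groups did not meet, with log2 fold change -0.24 (standard error 0.0623, unadjusted p = 0.000757, adjusted p = 0.517).

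Genes that glucocorticoids are known to induce had lower point estimates in primiparous females. This list, like those below, was chosen with earlier results of these data known, so its counts are a description and not a test. All 14 listed genes had a lower point estimate, 6 of them at an unadjusted p under 0.05 (background 3.83% lower), and 0 were higher. Their median log2 fold change was -0.20, against -1.45e-04 over all 13016 genes. Without primiparous 413 the median was -0.16, with 13 of 14 lower and 4 at an unadjusted p under 0.05 (background 4.72%). Summed over the list, the level was 1013 to 1256 CPM across virgin libraries (median 1135) and 855 to 1103 CPM across primiparous libraries (median 981). The sums overlapped, and 1103 CPM, the highest primiparous value, lay below the virgin median.

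Mt1 (gene 17748, chromosome 8, 94179082 to 94180327) encodes a metallothionein, a small cysteine-rich protein that binds zinc and copper. Its level ranged over 261 to 312 CPM across virgin libraries (median 271) and 206 to 254 CPM across primiparous libraries (median 231). All 8 primiparous libraries lay below all 7 virgin ones, with log2 fold change -0.26 (standard error 0.0503, unadjusted p = 2.57e-05, adjusted p = 0.167). With DESeq2 its adjusted p was 0.00316. Mt2, its neighbour on chromosome 8, ranged over 131 to 178 CPM across virgin libraries (median 151) and 103 to 142 CPM across primiparous libraries (median 128). All 8 primiparous values were below the virgin mean although the ranges overlapped, with log2 fold change -0.28 (standard error 0.0739, unadjusted p = 0.00116, adjusted p = 0.564).

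Ddit4, an inhibitor of the growth kinase complex mTORC1, ranged over 60.3 to 79.3 CPM across virgin libraries (median 71.3) and 44.8 to 64.4 CPM across primiparous libraries (median 58.1). In 6 of 8 primiparous libraries it was below the lowest virgin library, with log2 fold change -0.32 (standard error 0.0703, unadjusted p = 0.000157, adjusted p = 0.256). Sgk1, a kinase named for its induction by serum and glucocorticoids, was more variable, at 98.6, 146 and 177 CPM (lowest, median and highest virgin library) against 85.3, 98.8 and 166 (the same in primiparous females). The groups overlapped widely, and the estimate was -0.40 (standard error 0.174, adjusted p = 0.661). Nfkbia, the inhibitor of NF-kB, had a log2 fold change of -0.22 (standard error 0.101, adjusted p = 0.661) and Tsc22d3, a leucine zipper protein, one of -0.16 (standard error 0.0906, adjusted p = 0.733). Fkbp5, the co-chaperone that restrains the glucocorticoid receptor, had overlapping levels, 71.5 to 125 CPM across virgin libraries (median 96.2) and 83.1 to 115 CPM across primiparous libraries (median 92.95). The receptor itself, Nr3c1, overlapped as well, at 98.04 to 118 CPM across virgin libraries (median 103) and 89.02 to 122 CPM across primiparous libraries (median 112).

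Arrdc2, Cebpd and Csrnp1 lay outside that list and were also lower. They were picked for a small p or for groups that did not meet, so their direction is no evidence of a shared difference. Arrdc2, an arrestin-domain protein, ranged over 16.9 to 24.2 CPM across virgin libraries (median 20.3) and 11.2 to 20.3 CPM across primiparous libraries (median 12.4). In 7 of 8 primiparous libraries it was below every virgin library, and primiparous 427 was the exception at 20.3 CPM. By log2 fold change it was at -0.55 (standard error 0.114, adjusted p = 0.245). Without primiparous 427 the adjusted p was 0.00445 (edgeR), and over the fits that left out 1 library each it ran from 0.00445 to 0.688. Cebpd, a transcription factor of the C/EBP family, was at 17.3, 21.5 and 25.5 CPM (lowest, median and highest virgin library) against 13.2, 16.3 and 20.6 (the same in primiparous females). All 8 primiparous values were below the virgin mean, with a log2 fold change of -0.34 (standard error 0.0884, adjusted p = 0.517). Csrnp1, a nuclear protein rich in cysteine and serine, had groups that did not meet, 12.343 CPM in the lowest virgin and 12.335 CPM in the highest primiparous library, and a log2 fold change of -0.25 (standard error 0.0708, adjusted p = 0.564).

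The 250 bases before the start of both metallothionein genes are shown because both had lower point estimates. Metal response elements, the sites known for the metal sensor MTF1, were searched as TGCACNC or TGCGCNC on both strands in the 250 bases before each gene's start (RefSeq, GRCm38.p6). Of the 14 glucocorticoid-responsive genes, 13 had such a window and 5 held a match (38.5%), against 6420 of 27025 genes (23.8%). The Mt1 window (chr8:94178839-94179088, plus strand) held 1 match and the Mt2 window (chr8:94172368-94172617, plus strand) held 3, printed in capitals. A match is a description of the letters only. Bases outside these windows were not searched, so the counts are not those of a whole promoter.
Mt1: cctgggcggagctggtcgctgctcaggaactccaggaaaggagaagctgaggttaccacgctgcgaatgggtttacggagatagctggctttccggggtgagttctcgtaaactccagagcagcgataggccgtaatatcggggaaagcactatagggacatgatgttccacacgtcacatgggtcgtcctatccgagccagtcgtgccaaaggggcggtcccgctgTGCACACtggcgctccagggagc
Mt2: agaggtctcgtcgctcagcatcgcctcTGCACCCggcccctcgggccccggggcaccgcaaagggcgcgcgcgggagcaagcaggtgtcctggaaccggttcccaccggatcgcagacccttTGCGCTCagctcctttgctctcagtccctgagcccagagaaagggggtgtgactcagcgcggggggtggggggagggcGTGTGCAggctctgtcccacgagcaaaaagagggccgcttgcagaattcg

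**Figure D3:**
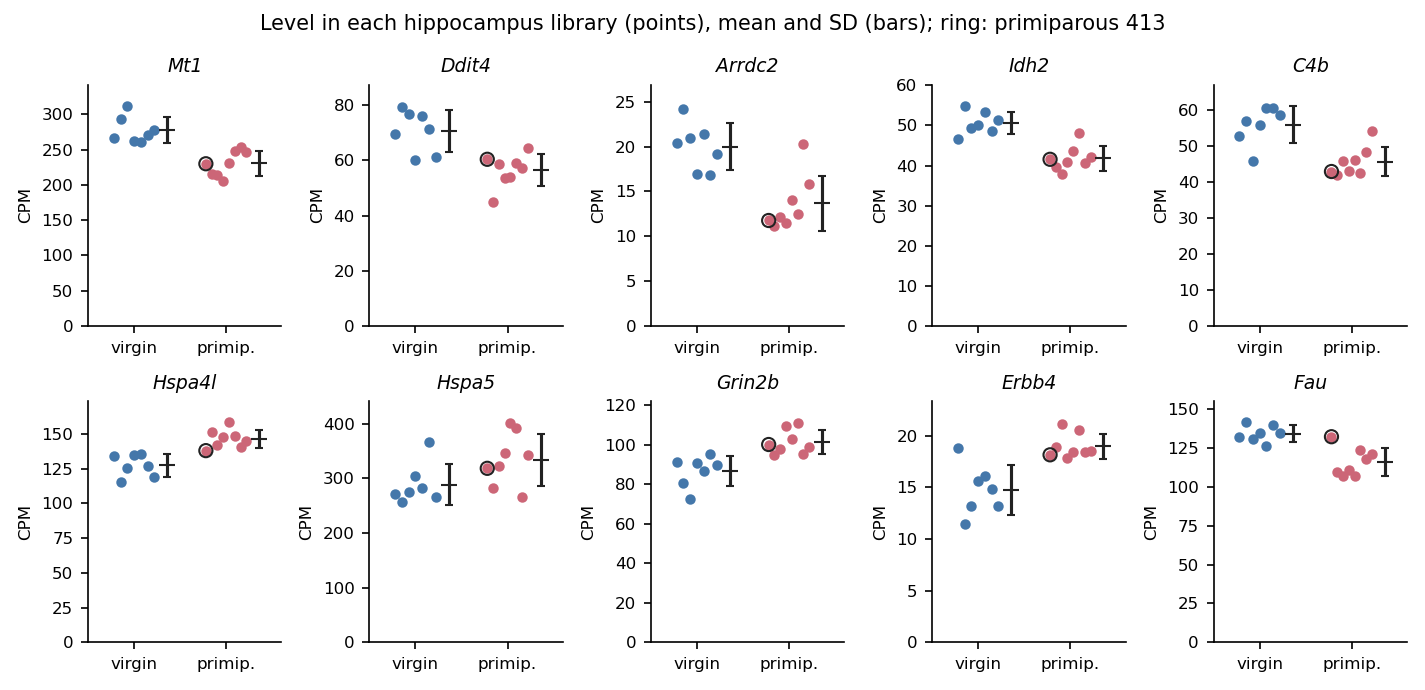
Level in CPM of 10 genes in each hippocampus library (points), with the mean and SD of each group beside them and a ring around primiparous 413. Mt1 and Hspa4l show groups that do not meet, and the other 8 genes show groups that overlap.

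Idh2 (gene 269951, chromosome 7, 80094846 to 80115392), the mitochondrial isocitrate dehydrogenase that makes NADPH, had the smallest p of all genes. It ranged over 46.6 to 54.9 CPM across virgin libraries (median 50.2) and 37.9 to 48.2 CPM across primiparous libraries (median 41.3). In 7 of 8 primiparous libraries it was below the lowest virgin library, with log2 fold change -0.27 (standard error 0.0514, unadjusted p = 2.42e-05, adjusted p = 0.167). With DESeq2 the adjusted p was 0.00316, and without primiparous 425 edgeR gave 0.0314. Its list, the citric acid cycle, was divided in direction: 11 of 19 genes were higher and 8 lower, against 6 and 13 without primiparous 413. Its median kept its sign in 21 of 37 other settings. Idh2 was the 1 lower gene of the list at an unadjusted p under 0.05 (background 3.83% lower), against 2 without primiparous 413 (background 4.72%).

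C4b, complement component C4, was at 45.8, 57.1 and 60.7 CPM (lowest, median and highest virgin library) against 42.04, 44.5 and 54.1 (the same in primiparous females). All 8 primiparous values lay below the virgin mean and 4 below the lowest virgin library, with log2 fold change -0.29 (standard error 0.0629, unadjusted p = 0.000115, adjusted p = 0.245). The subunits of C1q, which start the classical complement cascade and are made by microglia, had the same direction. C1qa ranged over 39.8 to 45.5 CPM across virgin libraries (median 42.4) and 33.6 to 41.9 CPM across primiparous libraries (median 38.2), and 6 of 8 primiparous libraries were below every virgin one. The estimate was -0.17 (standard error 0.0532, adjusted p = 0.564). The estimate was -0.19 (standard error 0.0705, adjusted p = 0.615) for C1qb and -0.15 (standard error 0.0662, adjusted p = 0.661) for C1qc.

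Over the 12 microglia markers the median log2 fold change was -0.0731, with 9 lower and 3 higher. The 4 at an unadjusted p under 0.05 (background 3.83% lower) were the 3 C1q genes and Siglech, a lectin of microglia at -0.22 (standard error 0.0896). With the number series of the animals (3-digit or 4-digit, described with the other covariates) in the fit, 2 were (background 2.89%). The defining markers Cx3cr1 (0.023), P2ry12 (0.053) and Tmem119 (-0.075) were nearer to 0. The summed level was 451 to 507 CPM across virgin libraries (median 488) and 411 to 496 CPM across primiparous libraries (median 463). Those sums overlapped. Astrocyte markers went both ways: Gfap, the intermediate filament, was lower (-0.15 (standard error 0.0579, adjusted p = 0.615)) and so was the growth factor receptor Fgfr3 (-0.14 (standard error 0.0485, adjusted p = 0.599)), whereas the gap junction gene Gja1 (0.16 (standard error 0.0531, adjusted p = 0.564)) and the water channel Aqp4 (0.19 (standard error 0.0848, adjusted p = 0.661)) were higher. Among 12 oligodendrocyte markers 0 were at an unadjusted p under 0.05 in either direction by edgeR (background 7.38%). Their sums were 5194 to 7686 CPM across virgin libraries (median 6068) and 4633 to 7435 CPM across primiparous libraries (median 5805).

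Chaperones of the endoplasmic reticulum (ER), which fold secreted and membrane proteins and are induced together in the unfolded protein response, had higher point estimates in primiparous females. Of 19 listed genes 18 had a higher point estimate, 7 of them at an unadjusted p under 0.05 (background 3.55% higher), and 0 lower genes were. The median log2 fold change was 0.10 and, without primiparous 413, 0.12 with 8 genes at an unadjusted p under 0.05 (background 4.92% higher). Their sum was 2409.7 to 2882 CPM across virgin libraries (median 2486) and 2606 to 3068 CPM across primiparous libraries (median 2712). The primiparous median lay above 5 of 7 virgin libraries, and the groups overlapped.

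Hspa5 (gene 14828, chromosome 2, 34771970 to 34777547), the Hsp70 chaperone BiP, ranged over 256 to 367 CPM across virgin libraries (median 275) and 265 to 401 CPM across primiparous libraries (median 332). Virgin 4489 was the high exception at 367 CPM, with the next virgin library at 303 CPM. By log2 fold change it was at 0.21 (standard error 0.0885, adjusted p = 0.652). Hsp90b1, the ER member of the Hsp90 family, ranged over 383 to 471 CPM across virgin libraries (median 413) and 429.6 to 514 CPM across primiparous libraries (median 453). All 8 primiparous values were above the virgin mean, within overlapping ranges, and the estimate was 0.11 (standard error 0.0494, adjusted p = 0.652). Sdf2l1, a cofactor of BiP, had the largest estimate of the list, 0.39 (standard error 0.174, adjusted p = 0.661), at a low level of 7.79 to 18.4 CPM across virgin libraries (median 10.5) and 11.1 to 19.6 CPM across primiparous libraries (median 14.2). Calreticulin, Calr, was at 0.14 (standard error 0.0662, adjusted p = 0.661), Hyou1, a relative of Hsp110, at 0.14 (standard error 0.0615, adjusted p = 0.657), and the disulfide isomerases Pdia3 and Pdia6 at 0.10 (standard error 0.0471, adjusted p = 0.661) and 0.15 (standard error 0.0694, adjusted p = 0.661). Atf4 and Ddit3, transcription factors of the stress response, were at 0.016 and -0.0068.

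The known ER stress response element, the joint site of NF-Y and of ATF6 or XBP1, was searched as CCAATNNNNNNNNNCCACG on both strands in the same windows. It was in 7 of the 17 listed genes with a window (41.2%) and in 35 of 27025 genes (0.13%). Here and for the clock genes below, a match describes the letters only. Its relation to the differences between the groups was not tested. The 7 were Hspa5, Hsp90b1, Calr, Canx, Pdia6, Dnajc3 and Creld2. Windows were set from RefSeq starts, and the GENCODE start of Hspa5 printed above lies inside its window. The windows of 3 genes with an unadjusted p under 0.05 are given with the element in capitals: Hspa5 (chr2:34771840-34772089, plus strand), with 1 match, Hsp90b1 (chr10:86705445-86705694, minus strand), with 2 that face opposite ways, and Calr (chr8:84846932-84847181, minus strand), with 1 on the opposite strand.
Hspa5: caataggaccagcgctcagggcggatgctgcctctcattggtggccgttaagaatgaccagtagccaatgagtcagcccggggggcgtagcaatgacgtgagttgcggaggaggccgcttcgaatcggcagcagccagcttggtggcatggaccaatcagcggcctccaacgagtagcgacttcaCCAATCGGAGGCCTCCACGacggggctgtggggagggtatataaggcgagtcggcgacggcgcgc
Hsp90b1: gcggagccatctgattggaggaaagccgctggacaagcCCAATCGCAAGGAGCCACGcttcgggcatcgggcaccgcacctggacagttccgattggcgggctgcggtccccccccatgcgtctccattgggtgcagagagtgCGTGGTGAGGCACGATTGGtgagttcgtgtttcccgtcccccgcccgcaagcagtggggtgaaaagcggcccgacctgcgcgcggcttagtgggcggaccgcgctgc
Calr: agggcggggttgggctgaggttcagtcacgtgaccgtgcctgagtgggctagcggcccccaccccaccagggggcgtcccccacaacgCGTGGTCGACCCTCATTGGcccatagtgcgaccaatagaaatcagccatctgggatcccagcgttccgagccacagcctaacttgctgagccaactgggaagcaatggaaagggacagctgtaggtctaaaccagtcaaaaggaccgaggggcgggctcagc

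Heat shock genes of the cytosol and mitochondria mostly had higher estimates as well. Of the 10 heat shock genes 8 were higher and 2 lower, with a median log2 fold change of 0.0497. Hspa8, the constitutive Hsc70, was at 0.13 (standard error 0.0574, adjusted p = 0.661), and Hspe1, the mitochondrial co-chaperonin, at 0.15 (standard error 0.0687, adjusted p = 0.661). The strongly inducible Hspa1a and Hspa1b were at -0.073 and -0.034. Hspa4l (gene 18415, chromosome 3, 40744495 to 40796103), an Hsp110 relative outside the list, ranged over 115 to 136 CPM across virgin libraries (median 127) and 138 to 159 CPM across primiparous libraries (median 146). No primiparous library met the virgin range, with log2 fold change 0.21 (standard error 0.0452, unadjusted p = 0.000132, adjusted p = 0.245). Without primiparous 413 its log2 fold change was 0.22.

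Genes of the cytosolic ribosome had small but widely shared lower estimates in primiparous females. Of 76 genes 73 had a lower point estimate and 19 of them an unadjusted p under 0.05 (25%, background 3.83%), with 0 higher at that level. The median log2 fold change was -0.0776. Without primiparous 413 it was -0.11, with 36 lower at an unadjusted p under 0.05 (background 4.72%). Rpl6l, Rpl23 and Rpl15 were the 3 with a higher estimate. Summed ribosomal transcripts were 9547 to 10788 CPM across virgin libraries (median 10325) and 9000.2 to 10991 CPM across primiparous libraries (median 9479.9). The highest primiparous sum belonged to library 413, and the next was 10040.3 CPM, below 6 of 7 virgin libraries.

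Fau (gene 14109, chromosome 19, 6057844 to 6059524), which encodes ribosomal protein S30 fused to a ubiquitin-like domain, ranged over 126 to 142 CPM across virgin libraries (median 134) and 107 to 132 CPM across primiparous libraries (median 114). Library 413, at 132 CPM, was the 1 primiparous library inside the virgin range, and the test gave log2 fold change -0.20 (standard error 0.0466, unadjusted p = 0.000218, adjusted p = 0.284). Rps27a, which encodes S27a fused to ubiquitin, was at 93.1, 97.8 and 109.7 CPM (lowest, median and highest virgin library) against 76.5, 85.1 and 97.2 (the same in primiparous females). In 7 of 8 primiparous libraries it was below the lowest virgin library, with a log2 fold change of -0.21 (standard error 0.0525, adjusted p = 0.512). Rpl13a was at -0.19 (standard error 0.0673, adjusted p = 0.599) and Rps21 at -0.19 (standard error 0.0720, adjusted p = 0.615). Subunits of respiratory complex I had a median of -0.0406, 26 of 37 lower, against -0.0666 and 30 lower without primiparous 413. Of these Ndufb9, at -0.14 (standard error 0.0408, adjusted p = 0.564), was the 1 gene of 37 at an unadjusted p under 0.05 (background 3.83% lower), against 4 without primiparous 413 (background 4.72%). Mitochondrial ribosome genes were nearer to balance, 48 of 74 lower with a median of -0.0147. Without primiparous 413 the median was -0.0248, with 49 lower, and without virgin 409 it was -0.00266. Many ribosomal genes have processed pseudogenes, and reads that also map to a copy are not counted, so their levels are less certain.

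Circadian clock genes had estimates in both directions. Of 19 genes 2 were higher and 4 lower at an unadjusted p under 0.05 (backgrounds 3.55% and 3.83%), and the median log2 fold change was -0.0367. Without primiparous 413, or with the number series in the fit, the counts were 1 and 5 (backgrounds 4.92% and 4.72%, or 2.61% and 2.89%), and Clock was the 1 higher gene. The median was -0.0171 without primiparous 413 and -0.0114 without primiparous 4493. The 2 higher genes encode activators. Clock (gene 12753, chromosome 5, 76209868 to 76304792) ranged over 77.4 to 91.7 CPM across virgin libraries (median 85.7) and 86.8 to 109.7 CPM across primiparous libraries (median 97.3). In 6 of 8 primiparous libraries it exceeded every virgin library, with a log2 fold change of 0.18 (standard error 0.0511, adjusted p = 0.564). Its partner Arntl (BMAL1) was at 0.13 (standard error 0.0599, adjusted p = 0.661). The 4 lower genes encode repressors and an output factor.

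Dbp (gene 13170, chromosome 7, 45705088 to 45710203), an output transcription factor, ranged over 19.9 to 29.2 CPM across virgin libraries (median 23.6) and 17.3 to 25.8 CPM across primiparous libraries (median 18.9). In 5 of 8 primiparous libraries it was below the lowest virgin library, and library 413, at 25.8 CPM, was the highest primiparous one. The estimate was -0.29 (standard error 0.0921, adjusted p = 0.564) and, without library 413, -0.35. Per1, a repressor that glucocorticoids also induce and that stands in both lists, ranged over 57.96 to 74.3 CPM across virgin libraries (median 69.1) and 51.6 to 65.7 CPM across primiparous libraries (median 60.3). All 8 primiparous values were below the virgin mean, with -0.19 (standard error 0.0549, adjusted p = 0.564). Cry2 was at -0.095 (standard error 0.0375, adjusted p = 0.618) and Bhlhe40 at -0.14 (standard error 0.0571, adjusted p = 0.652). Per2, Per3 and Nr1d1 had estimates of -0.078, -0.043 and -0.090, and none of them was at an unadjusted p under 0.05.

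The E-box CACGTG, the letters that CLOCK and BMAL1 are known to bind, reads the same on both strands. It was in 5 of the 17 clock genes with a window (29.4%; Per1, Cry1, Tef, Bhlhe41 and Ciart) and in 1854 of 27025 genes (6.86%). Of the 6 clock genes at an unadjusted p under 0.05, Bhlhe40 had no window, and of the other 5 Per1 was the 1 gene with a match, and its window (chr11:69098699-69098948, plus strand) is given for that reason, with the E-box in capitals.
Per1: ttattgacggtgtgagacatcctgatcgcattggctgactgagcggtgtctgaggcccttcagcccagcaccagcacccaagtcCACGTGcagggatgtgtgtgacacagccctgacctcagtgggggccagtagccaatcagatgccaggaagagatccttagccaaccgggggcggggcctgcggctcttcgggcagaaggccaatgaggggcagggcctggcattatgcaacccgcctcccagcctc

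Immediate early genes, which neurons switch on within minutes of activity, had 13 of 18 lower estimates, with a median log2 fold change of -0.0203. With the GC and length offset 9 were higher and 9 lower, with a median of -3.35e-04. The median was -0.054 without primiparous 413 and 0.00651 without virgin 405. At an unadjusted p under 0.05 there were 3 lower genes (background 3.83% lower) and 0 higher ones, against 4 and 2 without primiparous 413 (backgrounds 4.72% and 4.92%) and 1 and 1 with the offset (backgrounds 3.55% and 2.62%). Nr4a1, an orphan nuclear receptor, ranged over 46.6 to 55.7 CPM across virgin libraries (median 53.5) and 35.9 to 55.3 CPM across primiparous libraries (median 44.7). The estimate was -0.24 (standard error 0.0726, adjusted p = 0.564). Arc, which controls AMPA receptor removal at synapses, was at 97.9, 117 and 142 CPM (lowest, median and highest virgin library) against 73.98, 99.3 and 130.2 (the same in primiparous females). The groups overlapped, with a log2 fold change of -0.24 (standard error 0.106, adjusted p = 0.661). Egr1 was at -0.17 (standard error 0.0694, adjusted p = 0.638) and Junb at -0.18 (standard error 0.0893, adjusted p = 0.694). Fos and Npas4, common activity markers, were at -0.017 and -0.26. Fosb, a partner of Jun proteins, had a higher estimate of 0.22, as did the nuclear receptors Nr4a3 (0.16) and Nr4a2 (0.12).

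Glutamate receptor genes leaned towards higher levels. Of 22 genes 15 were higher, 4 of them at an unadjusted p under 0.05 (background 3.55% higher), and 1 of the 7 lower ones was (background 3.83% lower). The median log2 fold change was 0.0948. Without primiparous 413 it was 0.0850, with 6 higher and 2 lower at an unadjusted p under 0.05 (backgrounds 4.92% and 4.72%). With the offset for GC content and length described with the base composition results, those counts were 3 and 0 (backgrounds 2.62% and 3.55%) and the median 0.0616. Grin2b (gene 14812, chromosome 6, 135713233 to 136173511), the GluN2B subunit of NMDA receptors, ranged over 72.4 to 95.1 CPM across virgin libraries (median 89.6) and 94.5 to 111 CPM across primiparous libraries (median 99.5). In 7 of 8 primiparous libraries it exceeded all virgin libraries, with log2 fold change 0.23 (standard error 0.0545, unadjusted p = 0.000313, adjusted p = 0.339). Grin3a, another NMDA receptor subunit, was at 0.24 (standard error 0.0789, adjusted p = 0.57), and Grm8, a presynaptic metabotropic receptor, at 0.32 (standard error 0.131, adjusted p = 0.641). Gria4 was at 0.21 (standard error 0.0979, adjusted p = 0.661), and its highest library was 413, at 98.3 CPM; without it the estimate was 0.13. Grik5, a kainate receptor subunit, was lower, at -0.11 (standard error 0.0471, adjusted p = 0.64). The main AMPA receptor genes Gria1, Gria2 and Gria3 were at -0.018, 0.012 and -0.0036.

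Of 12 GABA-A receptor subunits 11 had a higher estimate, with a median log2 fold change of 0.0480 and 2 at an unadjusted p under 0.05 (background 3.55% higher). Without primiparous 413 the median was 0.0761, with 11 higher and 2 at that level (background 4.92%). With the GC and length offset 8 of 12 were higher and 1 was at that level (background 2.62%), and the counts were the same with the number series in the fit (background 2.61%). Gabrb1 ranged over 28.1 to 36.8 CPM across virgin libraries (median 36.4) and 33.3 to 45.5 CPM across primiparous libraries (median 40.02). In 7 of 8 primiparous libraries it exceeded every virgin library, and library 413, at 33.3 CPM, did not. By log2 fold change it was at 0.24 (standard error 0.0703, adjusted p = 0.564). Gabra2 was at 0.14 (standard error 0.0651, adjusted p = 0.661). Erbb4 (gene 13869, chromosome 1, 68032186 to 69108059), the neuregulin receptor found on interneurons, ranged over 11.5 to 18.8 CPM across virgin libraries (median 14.8) and 17.8 to 21.1 CPM across primiparous libraries (median 18.5). All 8 primiparous values were above the virgin mean, and virgin 405, at 18.8 CPM, was above the primiparous median. The estimate was 0.37 (standard error 0.0856, adjusted p = 0.318). Of 14 interneuron markers Gad1 alone was at an unadjusted p under 0.05 (log2 fold change 0.11; background 3.55% higher), and with the number series in the fit 0 were higher and 1 lower at that level (backgrounds 2.61% and 2.89%).

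Among 22 genes of synaptic plasticity 14 were lower and 8 higher. Camk4, a calcium-activated nuclear kinase, was at 0.20 (standard error 0.0741, adjusted p = 0.615), with library 413 the highest at 188 CPM. Nrgn, a calmodulin-binding protein of dendritic spines, ranged over 728 to 967 CPM across virgin libraries (median 883) and 788 to 840.0 CPM across primiparous libraries (median 819). The groups overlapped, with a log2 fold change of -0.11 (standard error 0.0477, adjusted p = 0.661). Genes outside the lists with higher estimates and small p included Bicd1, an adaptor of the dynein motor, and Diaph2, a formin that nucleates actin. Bicd1 (gene 12121, chromosome 6, 149408886 to 149563329) ranged over 20.1 to 24.4 CPM across virgin libraries (median 21.7) and 24.2 to 31.8 CPM across primiparous libraries (median 26.9). In 7 of 8 primiparous libraries it was above all virgin ones, with log2 fold change 0.33 (standard error 0.0650, unadjusted p = 4.06e-05, adjusted p = 0.176). Diaph2 was at 0.23 (standard error 0.0606, adjusted p = 0.517), Lmbrd2 at 0.31 (standard error 0.0704, adjusted p = 0.277), the actin-binding nebulette Nebl at 0.23 (standard error 0.0577, adjusted p = 0.517) and the ADP-ribosyltransferase Tnks at 0.20 (standard error 0.0483, adjusted p = 0.342).

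**Figure D4:**
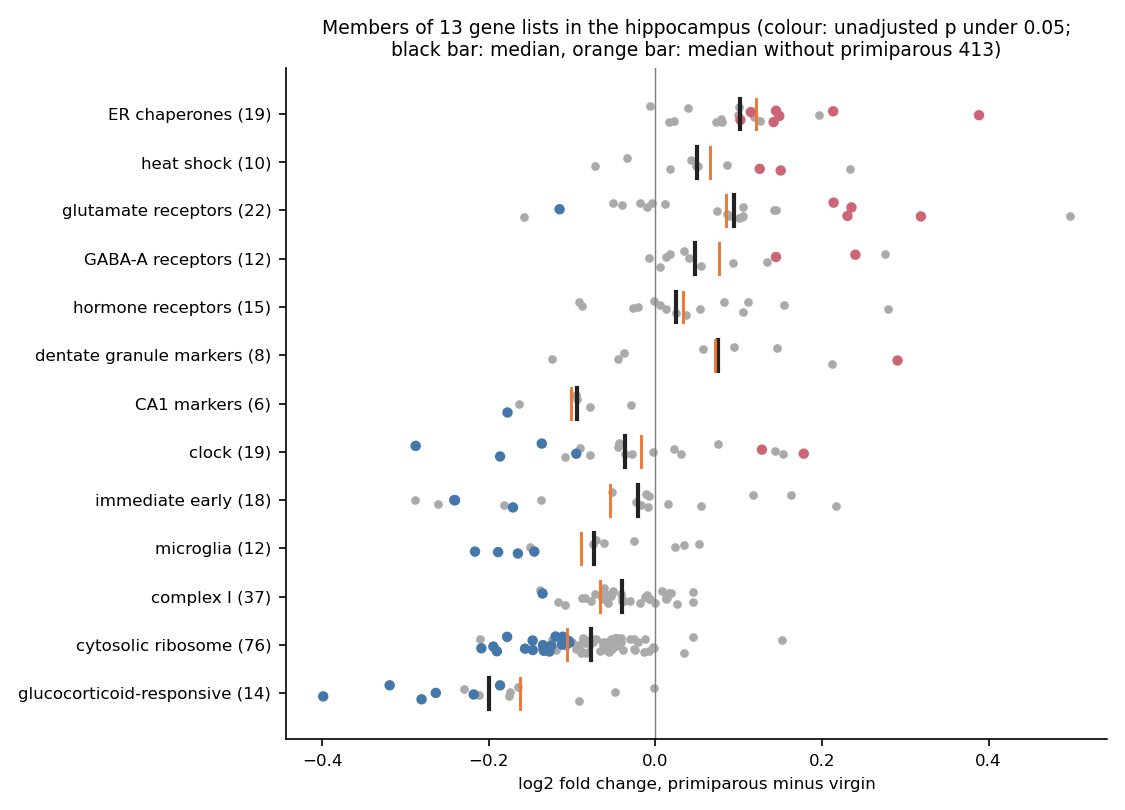
Log2 fold change (primiparous minus virgin) of the members of 13 gene lists, with colour for an unadjusted p under 0.05, a black bar for the list median and an orange bar for the median without primiparous 413. ER chaperones centre on 0.10 and the glucocorticoid-responsive genes on -0.20, while the 76 ribosomal genes lie close together around -0.0776.

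Markers of the hippocampal subfields had small differences. All 6 CA1 markers were lower, with a median log2 fold change of -0.0946. That median was -0.0582 without virgin 409 and -0.149 with the number series in the fit. Of these markers Spink8 was the 1 at an unadjusted p under 0.05 (background 3.83% lower), at -0.18 (standard error 0.0742, adjusted p = 0.652). Their sum was 731 to 974 CPM across virgin libraries (median 834) and 654 to 879.9 CPM across primiparous libraries (median 771). Dentate granule markers had 5 of 8 higher with a median of 0.0758, against 7 of 8 and 0.21 with the number series in the fit. Of them Glis3, a zinc finger transcription factor, was at 0.29 (standard error 0.136, adjusted p = 0.661), and Prox1, which sets granule cell identity, at 0.21. Summed dentate markers were 258 to 448 CPM across virgin libraries (median 369) and 286 to 489.8 CPM across primiparous libraries (median 382). The groups overlapped in both sums. Of 5 CA2 markers 4 were higher, with a median of 0.0732 that was 0.32 with the number series in the fit. Without virgin 409 that median was -4.76e-04, and without primiparous 413 the CA2 counts were 3 higher and 2 lower. Of 4 CA3 markers 2 were higher and 2 lower, and the median of -0.0534 had the opposite sign in 5 of 37 other settings. Cdh24, a cadherin of that list, was at -0.20 and was its 1 gene at an unadjusted p under 0.05 (background 3.83% lower), which it was not without primiparous 413, with the GC and length offset or with the number series in the fit. Both mossy cell markers that passed the filter were higher, with a median of 0.14.

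Of the 13 genes of adult neurogenesis, 9 passed the filter on low counts, 6 were higher and 3 lower. Dcx, the marker of newborn neurons, had overlapping levels of 12.1 to 17.6 CPM across virgin libraries (median 13.2) and 11.95 to 20.5 CPM across primiparous libraries (median 13.7). Sox4 was the 1 gene at an unadjusted p under 0.05 (background 3.83% lower), at -0.18 (standard error 0.0795, adjusted p = 0.661). Eomes, of intermediate progenitors, was at low levels of 0.231 to 1.56 CPM across virgin libraries (median 0.530) and 0.324 to 3.90 CPM across primiparous libraries (median 1.001), with library 413 highest. Of 19 listed hormone receptors, 15 passed the filter and 0 had an unadjusted p under 0.05 in edgeR (backgrounds 3.55% higher and 3.83% lower). Oxtr, the oxytocin receptor, ranged over 7.66 to 13.4 CPM across virgin libraries (median 11.6) and 6.49 to 16.2 CPM across primiparous libraries (median 12.1). Esr1, the oestrogen receptor alpha, ranged over 0.6249 to 3.67 CPM across virgin libraries (median 1.52) and 1.20 to 3.57 CPM across primiparous libraries (median 2.52). Both overlapped widely, with log2 fold changes of 0.11 (standard error 0.154, adjusted p = 0.904) and 0.28 (standard error 0.285, adjusted p = 0.866). Prlr, the prolactin receptor, was at most 74.3 CPM in primiparous 425 and 67.0 CPM in virgin 4487, the same libraries in which Ttr was highest, with medians of 6.01 and 5.58 CPM.

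Red blood cell transcripts were higher by estimate, with sums of 21.9 to 40.5 CPM across virgin libraries (median 26.8) and 22.1 to 86.9 CPM across primiparous libraries (median 33.8). Primiparous 425 was the highest library, and without it the list median was 0.39 rather than 0.64. Alas2, the first enzyme of haem synthesis in red cells, was at 0.84 (standard error 0.311, adjusted p = 0.615) and the globin gene Hba-a2 at 0.64 (standard error 0.285, adjusted p = 0.661). All 5 nuclear-retained RNAs (Malat1, Neat1, Meg3, Miat and Snhg11) were lower, with estimates from -0.26 to -0.13 and sums of 3919.8 to 5966 CPM across virgin libraries (median 5159) and 3537 to 5616 CPM across primiparous libraries (median 3969). Miat was the 1 of them at an unadjusted p under 0.05 (-0.24; background 3.83% lower), and 0 were without primiparous 413, with the GC and length offset or with the number series in the fit. The lncRNA 5031426D15Rik, one of the 12 genes that DESeq2 called, was at 0.694, 2.28 and 4.97 CPM (lowest, median and highest virgin library) against 0.243, 0.629 and 1.36 (the same in primiparous females). Its groups overlapped, with log2 fold change -1.88 (standard error 0.389, unadjusted p = 0.000103, adjusted p = 0.245). Slc6a3, the dopamine transporter, was listed with -1.80 (standard error 0.630, adjusted p = 0.599) at levels near 0: virgin 4491 held 2.49 CPM and the next virgin library 0.418 CPM.

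Animal numbers had 3 digits in 2 virgin and 7 primiparous libraries and 4 digits in 5 virgin and 1 primiparous library, and the labels do not say what the series stand for. Of the 961 genes at an unadjusted p under 0.05, 386 stayed so with the series as a covariate. That fit gave 716 genes at an unadjusted p under 0.05 and 0 at an adjusted one (edgeR). The series itself gave 595 and 0. Within the 3-digit animals the log2 fold change was -0.29 for Mt1, -0.28 for Idh2, -0.43 for Ddit4, 0.24 for Hspa4l and 0.33 for Hspa5. The list medians there were -0.28 for glucocorticoid-responsive genes, 0.18 for ER chaperones and -0.11 for the ribosome. With the covariate, 8 rather than 19 ribosomal genes were lower at an unadjusted p under 0.05, where the share over all genes was 2.89% rather than 3.83%. In the whole comparison most of the virgin libraries and nearly all primiparous ones differ in series, so series and parity can be separated only through those 3 exceptions.

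Differences also moved with base composition and length. From the lowest to the highest quintile of genes by exon GC content the median log2 fold change went from 0.046 to -0.047, and from the shortest to the longest quintile by exon length from -0.034 to 0.035. With an offset for GC content and length, fitted for 12632 genes, 558 of the 961 genes stayed at an unadjusted p under 0.05. At that level 3.55% of all genes were lower and 2.62% higher. In this fit 18 rather than 19 ribosomal genes were lower at that level, and the ribosomal median was -0.0614. The medians were -0.19 for glucocorticoid-responsive genes, 0.10 for ER chaperones and 0.0212 for GABA-A receptor subunits.

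The same animals allowed the hippocampal difference to be set against that of the other regions. In the hypothalamus 22.6% of genes had an adjusted p under 0.05, and in the cerebellum 0.707%. The hippocampal difference departed from the hypothalamic one for 2243 genes (17.2%) at an adjusted interaction p under 0.05, and for 1449 with the animal as a block. It departed from the cerebellar one for 22 (0.169%), and for 46 with the block. Against the neocortex and the amygdala it did for 0 genes in edgeR, with 1690 and 844 at an unadjusted p under 0.05. With the block those unadjusted counts were 1272 and 760, and with the length and GC offset added 485 and 818. With the block and without hippocampus library 413 they were 2902 and 883. The trend with GC content ran the opposite way in the hypothalamus, from -0.21 in the lowest quintile to 0.19 in the highest quintile. With the animal as a block and an offset for GC content and length, 60 genes departed from the hypothalamic difference, and the part of composition in the remaining interactions was not tested gene by gene.

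Several genes with small hippocampal p had the opposite direction in the hypothalamus. For Fau the hypothalamic log2 fold change was 0.36, a difference between regions of -0.55 (adjusted p = 0.000861). Idh2 was at 0.18 there, a difference of -0.44 (adjusted p = 0.00165). Dbp was at 0.34 and Clock at -0.25, differences of -0.62 (adjusted p = 0.00754) and 0.44 (adjusted p = 0.00279). Dbp and Clock thus had opposite signs in the 2 regions, as had Per1 and Cry2. Arntl, the other activator, was higher in both (0.13 and 0.081), and Bhlhe40 was lower in both (-0.14 and -0.093). Diaph2 was at -0.47, Fpgt at -0.39, Gabra2 at -0.35 and Camk4 at -0.33, with differences of 0.71, 0.63, 0.50 and 0.55. With the block and the offset together, Fau (adjusted p = 0.0229), Camk4 (0.0338) and Diaph2 (0.0496) were below 0.05, whereas Idh2, Dbp, Clock, Fpgt and Gabra2 had adjusted p from 0.12 to 0.55. Upf3a, named above for groups that did not meet, was also among the 60 genes called in that fit. For Mt1 and Hspa5 the adjusted p of the difference was 0.352 and 0.373.

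Against the cerebellum, 6 of the genes described here departed. C1qb had a cerebellar log2 fold change of 0.62 and a hippocampal one of -0.19, a difference of -0.81 (adjusted p = 0.00177). For C1qa the difference was -0.58 (adjusted p = 0.013). Rpl13a was at 0.50 in the cerebellum, a difference of -0.68 (adjusted p = 0.00177), and Fau, Rps27a and Ndufb9 differed by -0.39, -0.46 and -0.37. With the animal as a block, Rps27a was not among the 46 genes called, and with the block and the offset together C1qa, Fau and Ndufb9 were not among the 26. Without hippocampus library 413 the count against the cerebellum was 106 without the block and 27 with it.

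**Figure D5:**
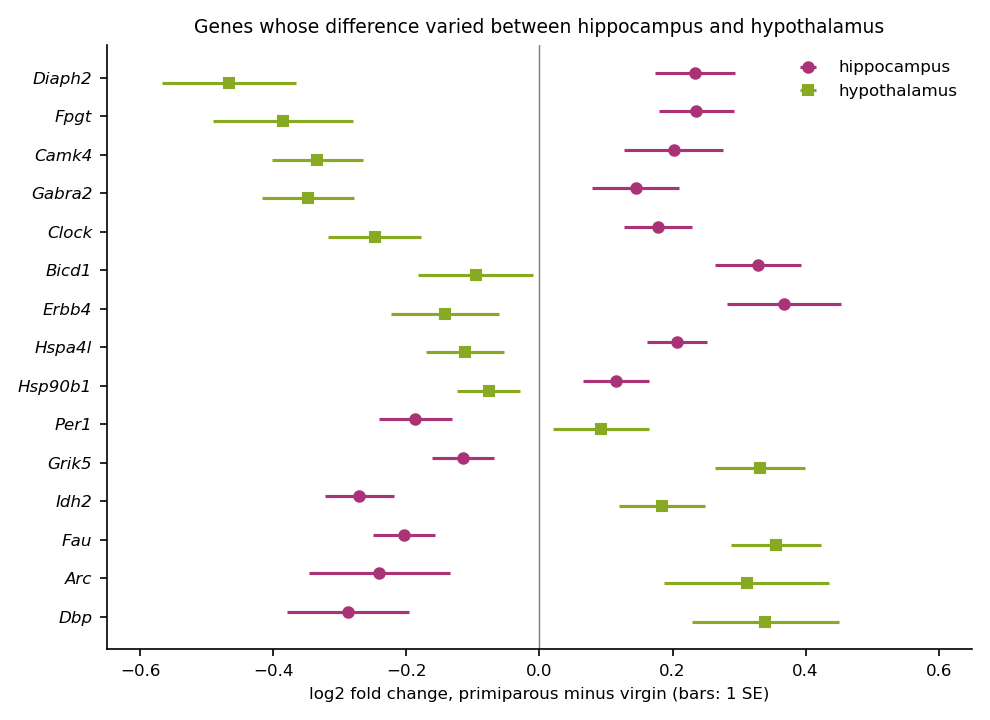
Log2 fold change (primiparous minus virgin, bars of 1 standard error) in the hippocampus and the hypothalamus for 15 genes whose difference varied between both regions (adjusted interaction p under 0.05). The 9 genes from Diaph2 to Hsp90b1 have a positive value in the hippocampus and a negative one in the hypothalamus, and the 6 genes from Per1 to Dbp the reverse.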

How the data were processed

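RNA of the left hippocampus of 7 virgin and 8 primiparous females was sequenced as single-end reads of 100 bases. The authors selected polyadenylated RNA, made NEBNext Ultra libraries, aligned reads with Hisat2 to mm10 and counted those with a single map position per gene with featureCounts, using its inbuilt annotation; the strand setting is not given in the sources used here. The deposited counts are whole numbers without normalization for 27179 genes. The authors' log2 table was used only as an alternative: its values match log2 of counts divided by size factors, plus 4, and not log2(CPM + 4). 

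The filter kept 13016 genes (5 CPM or more in 8 or more libraries of any region). The counts were fitted with edgeR 4.0.16 (TMM factors, quasi-likelihood F-test, R 4.3.3), with the hippocampus libraries alone, and p-values were adjusted over all genes by Benjamini-Hochberg. limma 3.58.1 (voom) and DESeq2 1.42.0 were alternatives. These and edgeR were also run on simulated counts with a single dispersion for all genes and no transcripts of other tissues. That simulation cannot tell which of their counts of genes holds in these data. Interactions were fitted over pairs of regions. Same-numbered libraries came from the same animal, so animal was an added block there. The median correlation of their deviations was -0.013 with the hypothalamus, 0.10 with the neocortex, 0.062 with the amygdala and 0.014 with the cerebellum. Coordinates are GENCODE M21 on GRCm38, and promoter windows are RefSeq on GRCm38.p6. The printed starts of Hspa5 and Mt1 therefore lie inside their windows. The text names genes from among the 12 of smallest p in each direction, genes past the threshold in an alternative, and list members, each list by its smallest p and its defining genes. Further genes were named after their values were seen, for their difference between regions or as members of the groups that did not meet. Not every gene that the rule allows is named, and 1 list member is not reported here. Members and lists were chosen with earlier results of these data known.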

Additional observations from a re-analysis of the deposited data

Results flagged for a closer look

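Dixon's 95% limit was applied to 304 groups of values (genes and list sums, each in virgin or primiparous females). In 35 (11.5%) the highest or lowest library lay farther from the rest than the limit allows. Chance gives about 1 in 20 groups only for normally distributed values, whereas these were CPM without a log. The groups also include transcripts of other tissues, and genes and lists were chosen with earlier results of these data known. The share of 11.5% is therefore a description and cannot be read as an excess over chance. Many of the 35 share a library, so they are not independent.

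Library 413 of the primiparous group was the highest for the cerebellum genes Car8 (223 CPM), Cbln3 (115 CPM), Gabra6 (54.3 CPM), Cnpy1 (5.41 CPM), Ppp1r17 (23.998 CPM) and Barhl1 (2.34 CPM), for Gria4 (98.3 CPM) and for the cerebellum list sum (1095 CPM). Primiparous 425 was the highest for the blood genes Alas2 (13.4 CPM), Hba-a2 (36.6 CPM) and Hbb-bs (35.6 CPM), for Ttr (3598 CPM) and Prlr (74.3 CPM), and for the sums of choroid plexus (4068 CPM) and blood genes (86.9 CPM). Primiparous 427 was the highest for Prl (47.9 CPM), Gh (11.01 CPM), Pomc (13.6 CPM) and Npy (57.0 CPM) and the lowest for the sum of plasticity genes (12715 CPM). Primiparous 421 was the highest for Hsp90b1 (514 CPM).

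In the virgin group, library 4487 was the highest for Ttr (3219 CPM), Cbln3 (3.96 CPM), Gabra6 (1.77 CPM), Prlr (67.0 CPM) and the sums of choroid plexus (3673 CPM) and thalamus genes (236 CPM), and the lowest for the clock sum (1441 CPM). Virgin 4489 was the highest for Hspa5 (367 CPM), 4491 for Slc6a3 (2.49 CPM), 409 for the cortex sum (163 CPM), 405 for Cnpy1 (0.0694 CPM) and 4486 for Barhl1 (0.0465 CPM), the last pair resting on single reads. The lowest virgin library stood apart for Rps21 (116 CPM, virgin 4488) and Nr4a1 (46.6 CPM, virgin 4486). Without primiparous 413 the median log2 fold change of the cerebellum list was 0.15, against 1.91 with it.

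The difference between primiparous and virgin females departed between the hippocampus and the hypothalamus for 2243 genes, of which 38 are named here (edgeR interaction, adjusted p under 0.05). As hippocampus minus hypothalamus on the log2 scale, it was negative for Per1 (-0.27), Idh2 (-0.44), Fau (-0.55), Dbp (-0.62), Arc (-0.55), Grik5 (-0.44), Nrgn (-0.29), Sox4 (-0.41), Ddit3 (-0.34), Hspa1a (-0.55), Nr1d1 (-0.32), Miat (-0.51), Cdh24 (-0.48) and Npy (-0.54). It was positive for Hspa4l (0.33), Hsp90b1 (0.20), Pdia3 (0.22), Clock (0.44), Grin3a (0.30), Grm8 (0.53), Gria4 (0.42), Gabrb1 (0.28), Gabra2 (0.50), Erbb4 (0.52), Bicd1 (0.44), Lmbrd2 (0.51), Tnks (0.25), Fpgt (0.63), Nebl (0.41), Diaph2 (0.71), Camk4 (0.55), Car8 (2.56), Barhl1 (4.74), Spink8 (0.92), Nr3c1 (0.26), Pcsk1 (0.42), Nr4a2 (0.46) and Dcc (0.54). Car8 and Barhl1 are among the cerebellum genes of library 413. With the animal as a block, Pdia3, Nrgn, Car8, Barhl1, Spink8, Sox4, Nr3c1, Pcsk1, Ddit3, Nr1d1, Miat and Nr4a2 no longer passed (adjusted p from 0.0505 to 0.324). With the length and GC offset as well, Fau, Diaph2 and Camk4 were the 3 of these 38 genes that passed.

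Against the cerebellum 22 genes departed. As hippocampus minus cerebellum, the difference was -0.58 for C1qa, -0.81 for C1qb, -0.39 for Fau, -0.46 for Rps27a, -0.68 for Rpl13a and -0.37 for Ndufb9.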

How the results depend on the processing

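Of the fold changes of 93 genes under other settings, 3368 kept their direction and their side of the threshold, 47 kept their direction and passed the adjusted threshold, and 5 changed sign. With the 3-digit animals alone Slc6a3 was at 0.15, Npas4 at 0.26, Nr4a2 at -0.094 and Cdh24 at 0.057 (adjusted p = 0.998 for each, edgeR), and with the series covariate Nr4a2 was at -0.026. The 20 genes given by level or with estimates near 0 changed sign in 152 of 740 gene and setting pairs. List medians kept their sign in all 37 settings for glucocorticoid-responsive genes (-0.28 to -0.15), ER chaperones (0.087 to 0.18), the ribosome (-0.11 to -0.049) and microglia (-0.13 to -0.039). Many other lists did so too, among them clock, complex I, heat shock, blood and the cerebellum list (0.0167 to 2.48). A kept sign is thus not particular to the lists named first, and most settings refit nearly the same libraries. For choroid plexus genes the sign was kept in 19 of 37 settings (-1.40 to 2.25).

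The adjusted count of 0 became 2 with sample quality weights in limma-voom (Arrdc2 and Mt1), 12 with DESeq2 and 39 with DESeq2 without library 413. It was 6 in a fit of all 10 groups, each a gene of high cerebellar level, and 1 in the 3-digit animals (Gm47283). Leaving out 1 library gave 0 to 1, Idh2 without primiparous 425 and Arrdc2 without 427. Choices made after seeing the data gave 2 without the 3 Prl libraries (Rsrp1 and Arrdc2) and 1 without the 4 Ttr libraries (Aqp4). The unadjusted count of 961 became 1534 without a filter on low counts, 304 in the 10-group fit (312 without library 413), 487 in the 3-digit animals and 1547 without the Ttr libraries, and 668 (without virgin 4491) to 1256 (without primiparous 413) with 1 library left out. The no-filter fit tested more genes and the 3-digit fit used fewer libraries; for the other settings the cause was not tested. The share of squared distance between the groups was 7.11% to 9.63% with 1 library left out.

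With the animal as a replicate block, the pairing of regions gave 1449 rather than 2243 interactions with the hypothalamus, 60 with the length and GC offset added and 1332 with library 413 left out. Against the cerebellum the block gave 46 rather than 22, 26 with the offset added and 27 with library 413 left out, while leaving out library 413 without the block gave 106. With 14.4 to 37.9 reads per CPM, genes near 0 such as Slc6a3 and Barhl1 rest on few reads.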
